A study of Mus musculus with 96 samples.

Results

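The mRNAs described here carry a 5′ untranslated region, called the leader below, of 500 nt or more. Each gene was represented by the transcript with the highest coding count over all libraries, with transcripts named by GENCODE vM21. A gene was kept when the leader of that transcript spanned at least 500 nt and its coding sequence held at least 100 RNA reads summed over the wild-type RNA libraries. This left 1006 of 22422 genes, or of 11499 genes that passed the same RNA minimum and had an annotated leader. The genes were thus chosen by the wild-type RNA counts, by the annotation and, through the choice of transcript, by coding counts summed over RNA and footprint libraries of both genotypes. The data are ribosome profiling and poly(A) RNA sequencing of mouse neural tube at stage E11.5. Wild-type embryos of the strain C3HeB were compared with C3HeB embryos heterozygous for the Xs-J allele of Eif3c (C3HeB/Eif3cXs-J/+), which keep an intact copy of the gene, so that the mutant is a reduction and not a loss. The allele is carried in every cell of the embryo, and the number and sex of the embryos in a pool are not given in the labels. Each genotype had 3 pools of neural tubes, a pool coming from a single litter, and the dissociated cells of a pool were divided between an RNA library and a footprint library, 12 libraries in all.

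During translation initiation the small ribosomal subunit, carrying eIF3 and other factors, loads at the 5′ end of an mRNA and scans through the leader until it meets a start codon. A long leader gives more places at which scanning can stop, chiefly upstream ATG codons that open short reading frames ahead of the protein, and ribosomes that translate such a frame leave footprints in the leader. eIF3 is a large multi-subunit factor of which eIF3c is a core subunit. Some developmental regulators, among them Hox factors and growth factor receptors, have long leaders.

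The start codons of 6 of the genes to which the results return are shown to set the annotated start beside an ATG that lies upstream of it in the leader. The upstream site is the first in the leader for Hoxb6, Hoxd8 and Ptp4a2. For Atf4 and Trim71 the upstream site shown is the first with a purine at position -3 and a G at position +4, counted from the A of the ATG as +1, the context that favours initiation in vertebrates. Each window holds 30 nt of the GENCODE vM21 transcript (mm10), written 5′ to 3′ as DNA, with the ATG in capitals.
Atf4 annotated start: gcaaagccccacaacATGaccgagatgagc
Atf4 upstream ATG: gggcttgcggccaccATGgcgtattagagg
Trim71 annotated start: ccagcccgcctgcaaATGgcttcgttcccg
Trim71 upstream ATG: ccaagcgagggtgaaATGgcccgatgacaa
Hoxb6 annotated start: gcgcctcccctcccgATGagttcctatttc
Hoxb6 upstream ATG: ggatttttagtcatcATGaaggctaaatgg
Hoxd8 annotated start: gcggccgccgccccgATGagctcgtacttc
Hoxd8 upstream ATG: tggcggggcgcgaaaATGcctcgccggcgc
Ptp4a2 annotated start: tttttatttgccataATGaaccgtccagcc
Ptp4a2 upstream ATG: ctccgccggccttcaATGcccagtccccag
Igfbp5 annotated start: ccagactccgagaaaATGgtgatcagcgtg
The upstream site of Atf4 lies 196 nt before the annotated start, that of Trim71 851 nt, that of Hoxb6 364 nt, that of Hoxd8 606 nt and that of Ptp4a2 629 nt. Igfbp5 has no ATG in its leader. The leaders lie at chr15:80255184-80256298 (Atf4, 2 exons), chr9:114563118-114564369 (Trim71, minus strand, 1 exon), chr11:96292476-96299176 (Hoxb6, 2 exons), chr2:74704905-74705547 (Hoxd8, 1 exon), chr4:129820221-129839582 (Ptp4a2, 2 exons) and chr1:72874140-72874884 (Igfbp5, minus strand, 1 exon).

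The leaders had a median length of 641 nt and ran from 500 to 3514 nt. Of the 1006, 395 had 500 to 599 nt and 144 had 1000 nt or more. The longest belonged to Hypk (3514 nt), Rap2b (3419 nt), Sf3b5 (3280 nt), Foxq1 (2783 nt) and F8 (2684 nt). Sequence was matched for 966 of them, of which 481 ran over several exons and 485 lay in 1 exon. The long leaders held a median of 4 upstream ATGs, counted on the transcript strand in any frame, against a median of 0 in the 10023 shorter leaders with sequence. At least 1 upstream ATG was present in 94.3% of the long leaders and 47.0% of the shorter ones, and 139 long leaders held 10 or more. An upstream ATG with both a purine at -3 and a G at +4 was found in 52.9% of long leaders against 14.7%. A reading frame that opened in the leader and ran past the annotated start was found in 24.4% against 15.9%. An uninterrupted run of at least 15 pyrimidines occurred in 28.5% against 5.47%. The median GC content was 60.3% in long leaders and 66.0% in shorter ones. These shares follow in part from length, since a longer sequence holds more of any short motif. Of the 964 annotated starts that are ATG codons, 40.5% had both the purine and the G, as Igfbp5 does in the windows above, and 83.9% had the purine.

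An annotated leader need not be the one the tissue uses, so the RNA libraries were used to check each. RNA reads per nucleotide in the leader were divided by reads per nucleotide of coding sequence. Reads wholly in the leader were taken as the reads of the transcript minus those of coding sequence and 3′ UTR. A read over the stop codon is subtracted in both parts, so this is a lower bound, set to 0 where negative. The median of this leader RNA density over the 1006 genes was 0.49. It was below 0.25 for 264 genes and below 0.1 for 154. Hypk (0.00459), Sf3b5 (0.0156) and Rap2b (0.0673), which carry the longest annotated leaders, were among them, as was Ndn (0.0132). For Dnajc7, Pou3f1, Cops8, Pgs1 and Tmsb4x the lower bound was 0, which does not show that no RNA read lay in the leader. For the genes named here the RNA gave little sign of the annotated long leader, as far as a lower bound can tell. Further limits are that 57 of 966 leaders overlapped coding sequence of another transcript, and that 170 genes had a second transcript with the same coding count and a leader under 500 nt. At the length limit, Map4 and Nudt19 entered with 500 nt, and Slc20a1, Tcf19 and Zfp428 stayed out with 499 nt. At the RNA limit, Cacna1i entered with 101 reads and Hs3st5 and Ndst4 stayed out with 99.

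The coding sequences held 7200322 to 13137407 reads in the RNA libraries and 11310843 to 59202834 in the footprint libraries, with wild-type pool 1 the deepest. The long leaders held 257796 to 1225723 footprints per library. Eif3c itself, whose leader has 104 nt, lay at 474 to 518 CPM of coding RNA in wild type (CPM being read counts scaled to a common library total, taken over the coding reads of that library unless leaders are named) and 290 to 302 in the mutant, a log2 difference of -0.75 ± 0.06 (SE; edgeR quasi-likelihood test, adjusted p = 0.000615). Summed over 14 neural tube markers, RNA stood at 4178 to 4239 CPM in wild type and 3720 to 3981 CPM in the mutant. Their coding footprints overlapped, at 5889 to 6268 CPM and 5656 to 6190 CPM. Surface epithelium markers summed to 0.69 to 1.63 CPM of RNA over all pools, with Krt5 and Krt14 at 0. Coding footprints of these epithelial markers summed to 7.13 CPM in mutant pool 1 and 2.63 to 3.86 CPM in the other pools. Mutant pool 1 stood apart in blood markers, with 6501 CPM of erythroid RNA against 2759 to 3435 CPM in the other 5 pools, and 634 CPM of endothelial RNA against 380 to 446 CPM. Its coding footprints of mesenchyme and somite markers summed to 2535 CPM, while the other mutant pools had 1755 and 1779 CPM and the wild-type pools 1599 to 1752 CPM. The RNA of these markers in mutant pool 1, at 1231 CPM, lay within the wild-type range of 845 to 1245 CPM. Mutant pool 2 lay close to wild type in many of the values below although its Eif3c level was that of the other mutant pools. The part of these differences in the results was not tested. P-values measure the spread between pools, and in these bulk samples fewer cells of a type and less RNA per cell cannot be told apart.

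In wild-type neural tube the typical long-leader mRNA held a larger part of its footprints in the leader than other mRNAs did. The leader share, defined as leader footprints over leader plus coding footprints, had a median of 25.2%, 24.6% and 25.1% in pools 1, 2 and 3 (mean 24.97% ± 0.302, SD, n = 3) over the 938 genes with at least 100 such footprints in each wild-type library. The 9736 genes with shorter leaders stood at 10.6%, 11% and 10.8%. The 3 wild-type pools lay within 1 percentage point of each other in both sets. In the mutant the long leaders stood at 27.6%, 24.8% and 27.1% and the shorter ones at 13.6%, 11.1% and 12.7%. Mutant pools 1 and 3 were thus above the wild-type range in both sets, and mutant pool 2 lay within it for the long leaders. Reads that overlap the end of the leader count in it, and these made up at most 15.1% to 16.3% of the long leaders' footprints in wild type. This is an upper bound, since all leader reads beyond the lower bound above are taken as such reads. Values given here and below without these reads use that lower bound. Without them the wild-type medians were 21.8%, 21.5% and 21.3%. The share rose with leader length, from 21.7% at 500 to 699 nt to 27.9% at 700 to 999 nt and 31.8% at 1000 nt or more, and is not a density, so a longer leader has more room for footprints.

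**Figure D1:**
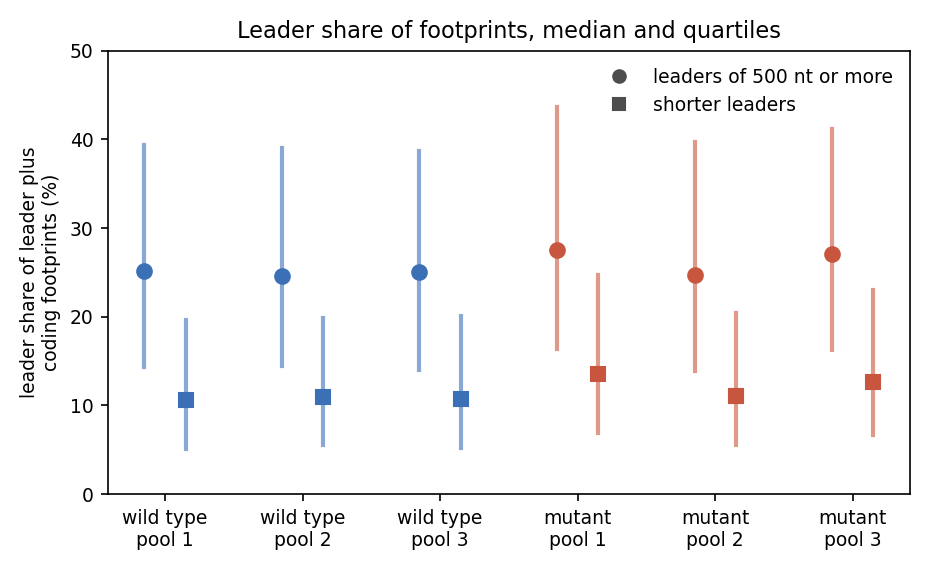
Median (points) and quartiles (bars) of the leader share of footprints in percent, for genes with leaders of 500 nt or more (circles) and for genes with shorter leaders (squares), in each of the 6 footprint libraries. The long-leader medians lie between 24.6% and 27.6%, and mutant pools 1 and 3 sit above the 3 wild-type pools in both sets.

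Of the 938 genes, 139 (14.8%) had more footprints in the leader than in the coding sequence, against 273 of 9736 (2.8%) with shorter leaders. Atf4, the transcription factor of the integrated stress response whose upstream reading frames are a textbook case, had leader shares of 87.2%, 87.0% and 88.7% in the wild-type pools. Ptp4a2, a protein tyrosine phosphatase, had 90.0%, 91.0% and 89.1%. Both values differed little between pools. Enho, which encodes the secreted peptide adropin, stood at 83.7% ± 1.41 (SD, n = 3), and Rfesd, which encodes a Rieske-type iron-sulphur protein, at 81.8% ± 2.15. The phosphatase gene Ctdsp2 stood at 80.7% ± 1.26, the membrane protein gene Tmem204 at 80.1% ± 2.06, and Smad7, an inhibitor of BMP and TGF-beta signalling, at 79.3% ± 1.22. Slc35a4, known for a translated upstream frame, stood at 88.4% ± 0.874. Rps25, a ribosomal protein gene, had the highest share at 99.99%. However, up to 98.2% of its leader footprints overlapped the leader's end, and the coding part of the chosen transcript held 1, 0 and 1 footprints. At the other end, the share was 0.384% for Sra1, 0.121% for Tmsb4x (thymosin beta 4), 0.115% for Psd3 and 0.0143% for Tmem67, a gene of the ciliary transition zone. In these 4 the leader RNA density was 0.0399 or 0, so that by this lower bound the annotated leader itself was hardly seen.

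Per nucleotide, and by the lower bound of reads wholly in the leader, the leaders carried somewhat fewer footprints than the coding sequence. The leader footprint density, divided by that of the coding sequence, had a median of 0.744, and 336 of 938 genes (35.8%) lay above 1. This ratio moved with the leader RNA density (Spearman's rho 0.691 across 938 genes, which share libraries and annotation and are not independent), and hardly with leader length (-0.041), leader GC (0.17) or upstream ATGs per 100 nt (-0.066). Atf4 had a footprint density ratio of 10.8 at a leader RNA density of 0.328. Map3k10, a kinase of the JNK pathway, had 6.51 at 0.906. Gli1, the transcription factor that Hedgehog signalling induces, had 3.11 at 0.416, with leader shares of 36.0%, 34.1% and 35.9%. Jun had 1.75 at 0.828, and Trim71, an RNA-binding ubiquitin ligase of early development that is a target of the microRNA let-7, 2.71 at 0.567. Slit2, a repellent ligand in axon guidance, had a lower footprint density ratio, 0.19 at an RNA density of 0.416. The Hedgehog coreceptor Boc lay at 1.002 at 0.555. For the growth factor Igf2 the ratio was 0.021 at an RNA density of 0.155.

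**Figure D2:**
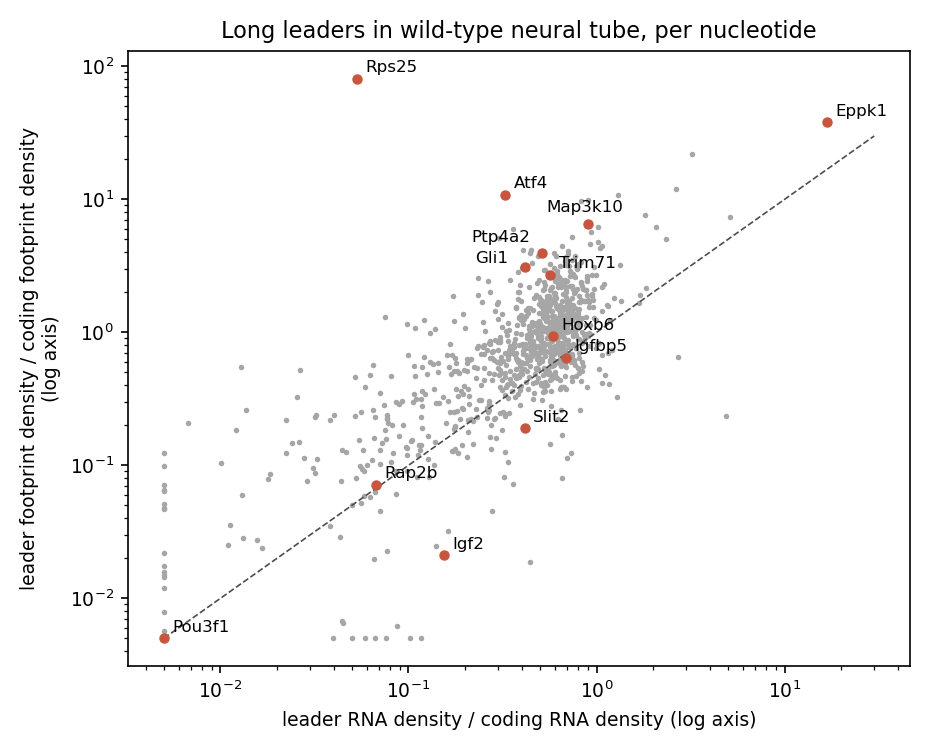
Leader footprint density over coding footprint density (vertical, log axis) against leader RNA density over coding RNA density (horizontal, log axis) in wild type, for the 938 genes with a measured share, with values under 0.005 drawn at 0.005. Points above the dashed line of equality have a higher leader to coding ratio in footprints than in RNA, as Atf4, Ptp4a2, Map3k10 and Gli1 do, and Igf2 lies below it. Both axes are relative to the coding sequence, so few coding footprints per RNA also place a gene above the line.

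The coding sequences of these mRNAs carried fewer footprints per RNA than those of other genes in the wild type. Coding footprint CPM over RNA CPM had a median of 0.810, 0.816 and 0.822 in the 3 pools (mean 0.816 ± 0.00619, SD, n = 3), against 1.03, 1.04 and 1.04 for the 10493 genes with shorter leaders. Because RNA counts chose the genes, this is given as a description with no test. The value fell with the number of upstream ATGs. The 55 long leaders without an upstream ATG had a median ratio of 1.30, those with 1 to 2 had 0.895, those with 3 to 5 had 0.783 and those with 6 to 10 had 0.704. The 111 leaders with 11 or more stood at 0.779. Among leaders with an RNA density of at least 0.25 the medians were 1.31, 0.858, 0.753, 0.590 and 0.499 in the same order. Shorter leaders gave 1.19, 0.911, 0.716 and 0.570 for 0, 1 to 2, 3 to 5 and 6 to 10. In 3 of these 4 groups the median of the long leaders was the higher one. Leader length and GC content moved along with the number of ATGs, from medians of 572 nt and 66.0% GC without an upstream ATG to 1123 nt and 49.6% GC with 11 or more, and their part was not tested. Atf4 stood at -4.25 on the log2 scale of footprints per RNA, Slc35a4 at -3.75, Ptp4a2 at -2.38, Trim71 at -2.21 and Gli1 at -2.09. Some genes named here have no ATG in the leader. Among these, Igfbp5 stood at 1.46, Igf2 at 1.31, Myc at 1.03 and Cdkn1b at 0.788, while Jun stood at -0.04, Tlk2 at -0.0893 and Pabpc4 at -1.44. The leader RNA density was only 0.155 for Igf2 and 0.139 for Tlk2. Gfra2, Slk, Map4 and Rps25 have no upstream ATG either, and their values are not given.

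**Figure D3:**
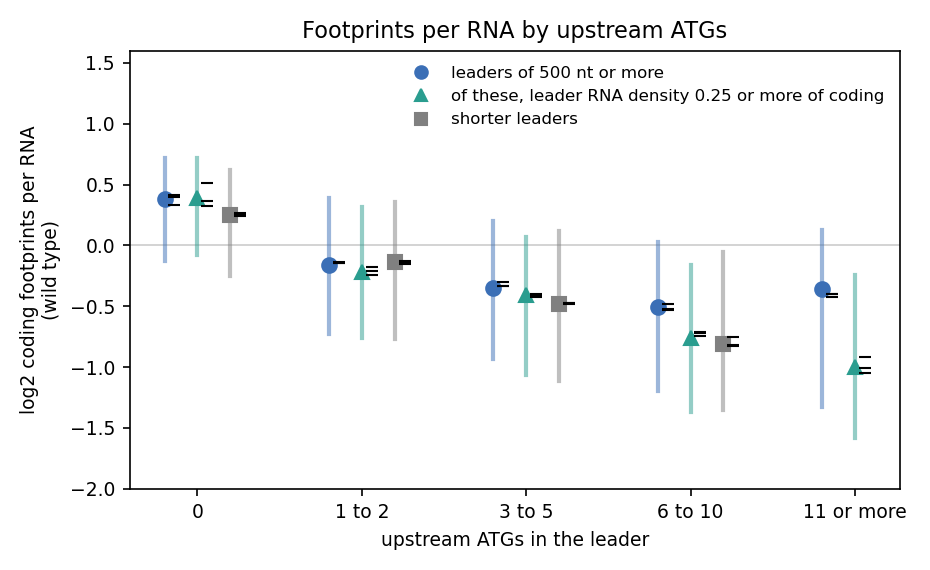
Log2 coding footprints per RNA in wild type (vertical; median and quartiles) by the number of upstream ATGs in the leader, for genes with leaders of 500 nt or more (circles), those of them with a leader RNA density of at least 0.25 (triangles) and genes with shorter leaders (squares). Black ticks give the medians of the 3 wild-type pools. The medians are lower with more upstream ATGs in each set, from 0.39 without any to -1.0 with 11 or more in covered long leaders. The exception is the set of all long leaders, where the last group (-0.36) lies above the one before it (-0.51).

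The study's main comparison asks how footprints change when Eif3c is reduced. Coding footprints entered the choice of transcript as part of a sum over all libraries, and the difference between genotypes was not used in it. Coding footprints of 3 of 1003 long-leader genes changed (edgeR, adjusted p under 0.05), 0.299% of those tested against 0.253% over all 13423 genes. Trim71 and Nr2f6 rose and Igfbp5 fell. Trim71 had 4.07, 6.33 and 4.72 CPM in the wild-type pools and 16.8, 17.7 and 11.54 CPM in the mutant, so that the lowest mutant pool lay above the highest wild-type pool. The difference was 1.64 ± 0.21 on the log2 scale, 3.11-fold (edgeR, adjusted p = 0.0162). Nr2f6, an orphan nuclear receptor, had 23.5, 28.0 and 23.9 CPM against 46.2, 44.55 and 39.7 CPM, a rise of 0.79 ± 0.10 (adjusted p = 0.0162). Igfbp5, a secreted binding protein of insulin-like growth factors, had 206, 210.5 and 219 CPM against 160, 154 and 156.5 CPM, a difference of -0.44 ± 0.06 (adjusted p = 0.0259). The pools of the 2 genotypes did not overlap in any of the 3 genes. Separate pools were a condition for naming the largest called changes, here and below, and so are no further support. The median log2 difference was -0.043 over the long-leader genes and 0.014 over all genes, and 27.2% and 22.8% respectively had an unadjusted p under 0.05. The count rests on few libraries. It was 0 without wild-type pool 1 or without wild-type pool 3, where 0.0593% and 0.0667% of all genes passed. Without mutant pool 2 it was 233 (58 higher, 175 lower), where 17.1% of all genes passed.

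Within the leaders themselves more genes passed, and most of them fell. Leader counts were scaled to the summed leader footprints of each library, so a difference is relative to the average leader. On this scale 90 of 976 leaders changed (edgeR, adjusted p under 0.05), which is 9.22% against 9.08% over all 10931 leaders tested. Of these, 22 rose (2.25% against 5.46% over all) and 68 fell (6.97% against 3.61%), and the median log2 difference was -0.079 against 0.010. Leader footprints as a whole took a larger part of the mutant libraries, chiefly in mutant pools 1 and 3. The pooled leader share of long leaders was 21.89%, 21.82% and 21.68% in wild type and 25.06%, 22.34% and 24.25% in the mutant. For shorter leaders it was 12.77%, 12.74% and 12.68% against 15.38%, 12.94% and 14.78%. Scaling to coding footprints therefore moved the median of all leaders up by 0.22 on the log2 scale. The split then became 77 higher and 21 lower of 976, where 1440 rose and 82 fell of all 10931 leaders. The median was 0.14 against 0.23 over all genes. The change of scale moves all leaders by nearly the same amount. It therefore keeps the distance of the long leaders below the average leader and is no second test of it. All 22 rises were called on either scale, while 21 of the 68 falls were. The number of calls was 1, 57 and 13 without wild-type pool 1, 2 and 3, where 0.433%, 6.63% and 1.78% of all leaders passed. It was 44, 245 and 20 without mutant pool 1, 2 and 3, where 5.48%, 17.9% and 2.78% passed. Without the reads at the leader's end it was 53 of 929 (11 higher, 42 lower), against 6.02% of all leaders.

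Among the rises, Prtg, which encodes the cell surface protein protogenin of early neural progenitors, had the largest in a covered leader. Its leader held 11.4, 9.29 and 15.1 CPM of all leader footprints in wild type and 34.5, 23.0 and 26.0 CPM in the mutant, a difference of 1.19 ± 0.22 (edgeR, adjusted p = 0.00681). Each mutant pool was above each wild-type pool. The Prtg RNA went from 25.5 ± 2.78 CPM to 43.2 ± 15.0 CPM (SD, n = 3), with mutant pool 2 at 26.4 CPM, and did not pass (adjusted p = 0.0994). Trim71 rose in the leader as well, from 37.2, 45.0 and 42.5 CPM to 72.1, 67.4 and 56.9 CPM (0.66 ± 0.14, adjusted p = 0.0129), as did Nr2f6, from 175, 176.5 and 173 CPM to 345, 220 and 248 CPM (0.63 ± 0.14, adjusted p = 0.0146). Pabpc4, a cytoplasmic poly(A)-binding protein, stood at 45.0, 56.5 and 39.6 CPM and then 74.7, 77.9 and 67.6 CPM (0.66 ± 0.15, adjusted p = 0.0143). Rnf26, a ubiquitin ligase, rose by 0.65 ± 0.12 (adjusted p = 0.00717), with its leader also annotated to the gene Gm49380, so the reads cannot be assigned to either. Of the 22 leaders that rose, 12 had a leader RNA density under 0.25. For those of Ccdc84 (1.41), Pgs1 (0.97) and Dnajc7 (0.88) the upper bound of footprints at the leader's end was 93.3% to 100%.

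The leader of Sv2b, a synaptic vesicle protein, went from 6.84, 5.72 and 5.55 CPM to 0.874, 3.00 and 2.08 CPM, the largest fall at -1.64 ± 0.40 (edgeR, adjusted p = 0.0218). That of Nlgn1, the postsynaptic adhesion protein neuroligin 1, went from 15.1, 17.2 and 13.8 CPM to 5.68, 6.49 and 6.59 CPM (-1.27 ± 0.24, adjusted p = 0.00699). The 3 mutant pools of Nlgn1 lay close together and below every wild-type pool. Mab21l2, a regulator of eye and neural development, went from 702, 604 and 681 CPM to 237, 488 and 316 CPM (-0.94 ± 0.19, adjusted p = 0.00881). For the protocadherin Pcdh10 the values were 84.0, 83.2 and 93.4 CPM and then 30.6, 58.9 and 50.6 CPM (-0.90 ± 0.18, adjusted p = 0.00829). Igfbp5 fell from 916, 851 and 854 CPM to 395, 637 and 462 CPM (-0.81 ± 0.15, adjusted p = 0.00562). In Mab21l2, Pcdh10 and Igfbp5 mutant pool 2 was the highest of the mutant pools, yet below every wild-type pool. Further named falls were Gpr22 (-1.03), Tsga10 (-0.89), Pak7 (-0.89) and Nrxn3 (-0.88). Over the alternative fits Sv2b was called in 8 of 13, Gpr22 in 8 of 14 and Nrxn3 in 5 of 14. Nlgn1 was called in 13 of 14, and Mab21l2, Pcdh10, Tsga10 and Pak7 in 12 of 14 each. Sv2b, Gpr22 and Nrxn3 were not called without reads at the leader's end. Sv2b was also lost on leaving out wild-type pool 1 or 3 or mutant pool 1 or 3. Of the 68, the median RNA difference was -0.31 and the median coding footprint difference -0.28, so the coding sequence and the RNA of these genes lay lower too.

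**Figure D4:**
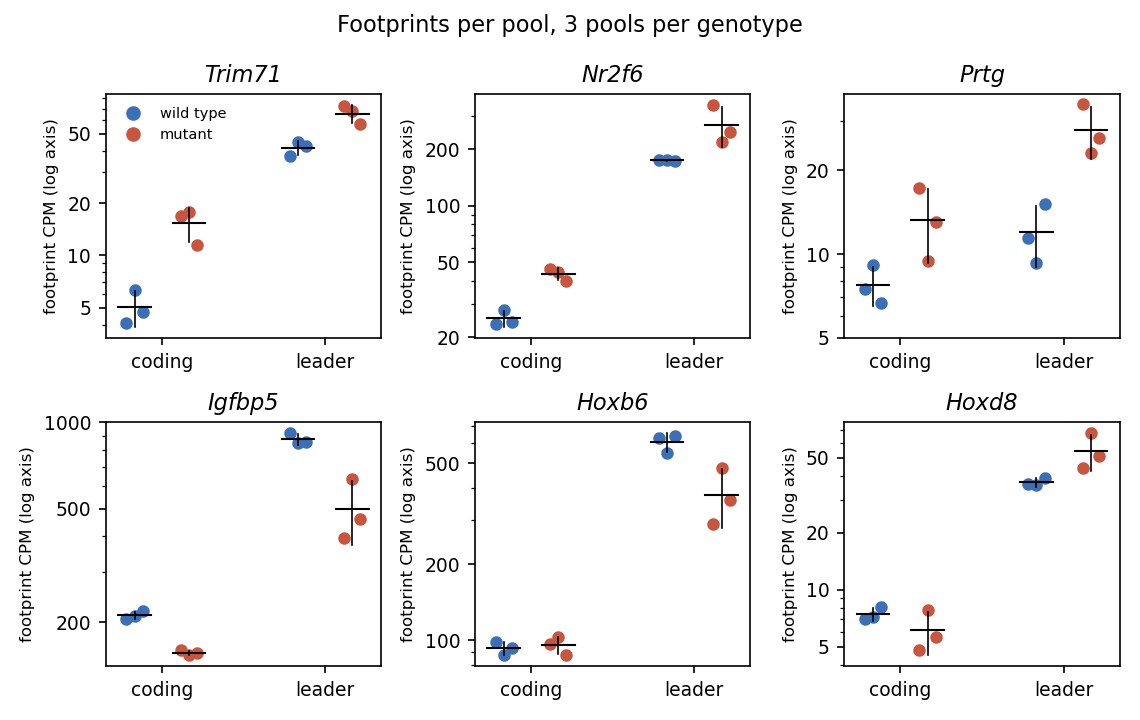
Coding and leader footprints in CPM (log axis) of 6 genes in each of the 3 wild-type and 3 mutant pools (points), with means (horizontal lines) and SD (vertical lines). Trim71 and Nr2f6 lie higher in the mutant in both parts, Prtg in the leader, and Igfbp5 lower in both, while in Hoxb6 and Hoxd8 the leader moves in opposite directions with overlapping coding values.

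Gene groups were taken from lists of pathways and cell types. Of the 8 long-leader genes of the neuronal cytoskeleton and synapse list, 4 leaders fell (Map2, Syt1, Nrxn3 and Nlgn1) and none rose, with a median of -0.59 against 0.010 over all leaders. Map2, the dendritic microtubule protein, went from 923, 966 and 936 CPM to 512, 877 and 567 CPM (-0.53 ± 0.16, edgeR adjusted p = 0.0493). Syt1, the calcium sensor of transmitter release, went from 176, 173 and 175 CPM to 83.5, 145 and 108 CPM (-0.65 ± 0.15, adjusted p = 0.0195). Scaled to coding footprints, Syt1 and Nlgn1 were called and the median was -0.40. There were 0 calls without wild-type pool 1, 1 (Nlgn1) without mutant pool 1 and 7 without mutant pool 2. Over all leaders 0.433%, 5.48% and 17.9% passed in the same fits. Of the 45 genes of the whole list tested, 19 leaders fell and 1 rose. In the main fit 3.61% of all leaders fell and 5.46% rose. The RNA of the 8 genes had a median difference of -0.34, with no member called.

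Of the 14 long-leader genes among factors of postmitotic spinal neurons, 6 leaders fell (Lhx1, Lhx5, Lbx1, En1, Nfib and Ebf1) and none rose, with a median of -0.42. These factors mark classes of spinal interneurons or their differentiation. Lhx1 went from 760, 818 and 809 CPM to 538, 654 and 544 CPM (-0.46 ± 0.11, edgeR adjusted p = 0.0210). Nfib went from 161, 135 and 140 CPM to 54.2, 121 and 90.5 CPM (-0.73 ± 0.20, adjusted p = 0.0340). The 6 calls depended on the scale and on single libraries. None was left when leaders were scaled to coding footprints (median -0.22), nor without mutant pool 1, nor without wild-type pool 1, and there were 9 without mutant pool 2. In the whole list 11 of 49 leaders fell and none rose, against 3.61% lower and 5.46% higher over all leaders. Of 16 long-leader genes of axon guidance and adhesion, 3 fell (Sema3a, Plxna2 and Nrp2), with a median of -0.22 that was -0.002 when scaled to coding footprints. Sema3a, a secreted repellent, went from 53.8, 57.9 and 66.6 CPM to 23.6, 42.4 and 35.7 CPM (-0.81 ± 0.18, adjusted p = 0.0148), and was called on both scales. The axon guidance list had 0 calls without wild-type pool 1, Sema3a alone without mutant pool 1, and 6 falls and 1 rise without mutant pool 2. Of all leaders 0.433% passed without wild-type pool 1, 5.48% without mutant pool 1 and 17.9% without mutant pool 2.

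Hox factors give cells their place along the anterior-posterior axis, and their leaders moved both ways. Among 7 with long leaders, those of Hoxa9, Hoxb6, Hoxb8 and Hoxc9 fell and that of Hoxd8 rose, with a median of -0.47 (-0.27 when scaled to coding footprints, where Hoxb6 and Hoxb8 stayed lower and Hoxd8 and Hoxd4 were called higher). Hoxb6 went from 632, 548 and 640 CPM to 288, 481 and 358 CPM in the leader (-0.69 ± 0.15, edgeR adjusted p = 0.0136). Hoxb8 went from 814, 662 and 784 CPM to 364, 605 and 438 CPM (-0.69 ± 0.16, adjusted p = 0.0152). For Hoxd8 the leader held 36.1, 35.7 and 39.2 CPM in wild type and 44.1, 67.4 and 51.3 CPM in the mutant (0.54 ± 0.16, adjusted p = 0.0485), and it was not called with GC offsets (0.39, adjusted p = 0.169). Without wild-type pool 1 no Hox leader was called, and without mutant pool 1 Hoxb6 and Hoxb8 were lower and Hoxd8 higher. Over all leaders 0.433% and 5.48% passed in those fits, and in the main fit 3.61% fell and 5.46% rose. Hoxa9 and Hoxc9 had a leader RNA density of 0.066. For Hoxc9 the lower bound of footprints wholly in the leader was 0, so up to all of its leader footprints could lie at the leader's end.

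The ratio of leader to coding footprints within a gene asks whether ribosomes shift between the parts of an mRNA. It changed in 31 of 974 long-leader genes (edgeR, adjusted p under 0.05), 3.18% against 5.71% of all 10798 genes tested. Of these, 15 rose (1.54% against 3.65%) and 16 fell (1.64% against 2.07%), with a median log2 difference of -0.088 against -0.004. Scaled to coding footprints the count was 53 of 974, against 9.23% of all genes. Of the 53, 51 were higher and 2 lower, and the median was 0.14 against 0.22. The ratio of a typical long-leader gene was thus 1.10-fold higher in the mutant on that scale, and that of a typical gene 1.17-fold. These are averages over the mutant pools, and in mutant pool 2 the median leader share of long leaders lay within the wild-type range. The median ratio difference was lower the longer the leader, from 0.042 below 100 nt to -0.049 at 500 to 699 nt, -0.088 at 700 to 999 nt and -0.16 at 1000 nt or more. On the coding scale the same bins gave 0.27, 0.18, 0.13 and 0.069. That scale moves every bin by nearly the same amount, so it is no second test of the trend. An offset for leader and coding GC content brought the bins to 0.034, -0.017, -0.011 and -0.054. It left 20 of 974 long-leader genes called (17 higher, 3 lower), against 4.95% of all genes. The ratio difference had a Spearman's rho of 0.305 with leader GC and -0.368 with coding GC across 936 long-leader genes. The part of GC content was not tested further. The count was 1 without wild-type pool 1, 4 without wild-type pool 3, 15 without mutant pool 1 and 77 of 980 (21 higher, 56 lower) without mutant pool 2. Over all genes 0.338%, 1.36%, 3.5% and 9.27% passed in the same fits. Leaving out the reads at the leader's end gave 8 of 927, against 2.38% of all genes.

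**Figure D5:**
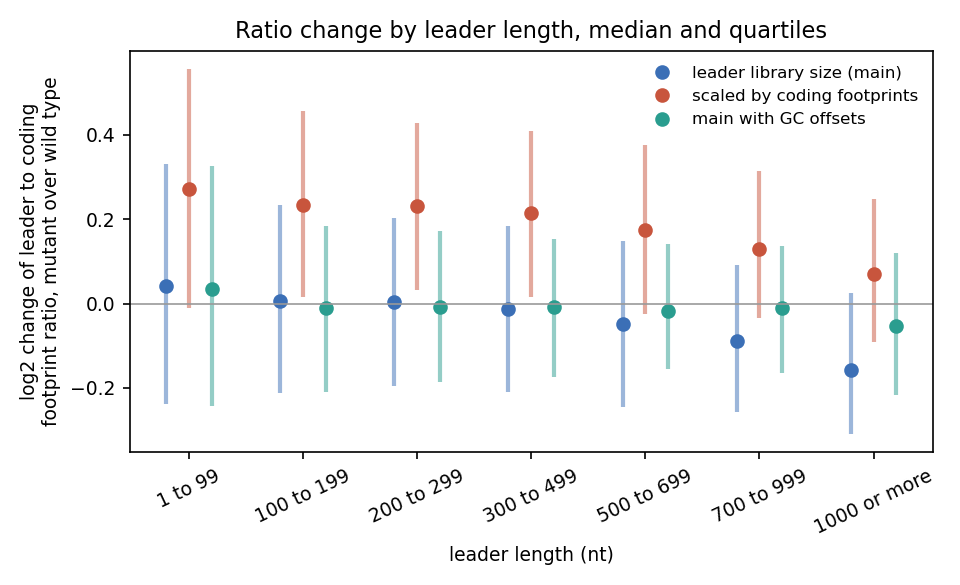
Log2 change of the leader to coding footprint ratio, mutant over wild type (vertical; median and quartiles over genes), by leader length in nt, for leader counts scaled to their own library size, scaled to coding footprints, and with GC offsets. The medians are lower at greater length on the first 2 scales, from 0.042 to -0.16 and from 0.27 to 0.069, with most of the spread between genes lying across 0 on the first. The second scale moves every bin up by nearly the same amount, so its trend is carried over from the first.

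Trim71 and Hoxb6 were the falls called on both scales. In Trim71 the share of footprints in the leader was 59.2%, 53.6% and 59.0% in wild type and 46.7%, 38.5% and 48.7% in the mutant, and the ratio differed by -0.98 ± 0.17 (edgeR, adjusted p = 0.00472). Coding footprints rose more than leader footprints did. With GC offsets the difference was -0.86 (adjusted p = 0.00778) and without reads at the leader's end -1.03 (adjusted p = 0.0208). It was not called without wild-type pool 1. In Hoxb6 the share was 50.6%, 50.5% and 52.4% and then 37.8%, 43.5% and 44.0%, a ratio difference of -0.77 ± 0.15 (adjusted p = 0.00779). Here the coding footprints stood at 92.9 ± 5.38 CPM in wild type and 95.7 ± 7.47 CPM in the mutant (SD, n = 3), and the leader alone was lower. With GC offsets the Hoxb6 ratio did not pass (-0.39, adjusted p = 0.0508), nor without wild-type pool 1 or 3. Hoxd8 was the counterpart, with shares of 45.1%, 44.6% and 43.6% and then 65.2%, 58.4% and 63.8%, and a ratio difference of 0.83 ± 0.17 (adjusted p = 0.00992). Its call was kept on the coding scale (1.04), with GC offsets (0.82) and without reads at the leader's end (0.83), and lost without wild-type pool 1 or 3. Both Hox genes have similar RNA coverage of the leader (0.590 and 0.491).

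Other ratio falls were found in factors of the neural tube and of vessels. Irx5, a homeodomain factor, had leader shares of 31.6%, 29.1% and 24.8% and then 24.1%, 23.9% and 17.2% (-0.78 ± 0.18, edgeR adjusted p = 0.0208), and its relative Irx3 had a difference of -0.48 (adjusted p = 0.0384). Both belonged to the 12 long-leader genes of neural tube patterning, of which 11 were tested for the ratio, 2 fell, and the median was -0.30. Over all genes 2.07% of ratios fell. Scaled to coding footprints none of the 11 was called and the median was -0.077. Irx5 alone was called without mutant pool 1, Irx5 was not called without mutant pool 3, and none of the 11 without wild-type pool 1. Pou3f3 fell by 0.56 ± 0.12 (adjusted p = 0.0135). Kbtbd11 fell by 0.73 ± 0.14 (adjusted p = 0.00741), with shares of 24.8%, 23.6% and 22.0% and then 17.4%, 17.2% and 18.7%. The endothelial factor Sox17 had a difference of -0.99 ± 0.26 (adjusted p = 0.0348), with 112 nt of its leader annotated as coding in another transcript. Its coding footprints were highest in mutant pool 1 at 9.99 CPM, while the remaining pools ranged from 4.50 to 6.74 CPM. The same pool had the highest endothelial markers, and without that pool the Sox17 ratio was not called. Neither was it called without wild-type pool 1 or 3, without mutant pool 3, with GC offsets, on the coding scale or without reads at the leader's end. Smad6, like Smad7 an inhibitor of BMP signalling, had one of -0.94 ± 0.27 (adjusted p = 0.0451), with 270 nt of its leader annotated as coding in another transcript, and its call was lost with GC offsets, on the coding scale and on leaving out any pool except mutant pool 3. Gfra2 differed by -0.76, and Jph4 by -0.94, where coding footprints stood at 2.85, 9.83 and 3.27 CPM over the mutant pools and the call was lost without mutant pool 2. Among the rises, the share of Ypel1 went from 63.7%, 66.4% and 68.9% to 80.9%, 74.5% and 83.3% (0.80 ± 0.20, adjusted p = 0.0270). Ube3a, the ubiquitin ligase of Angelman syndrome, went from 11.9%, 14.5% and 12.5% to 24.2%, 17.4% and 19.3% (0.55 ± 0.13, adjusted p = 0.0248). Mgat5b (0.68), Slk (0.62) and Dr1 (0.61) rose as well. Over 14 alternative fits Ypel1 and Mgat5b were called in 8 each and Slk and Dr1 in 7 each. The calls of these genes were lost without wild-type pool 1 or 3 and without reads at the leader's end. Slk and Dr1 were also lost with GC offsets. Of the 15 rises, 12 were tested without reads at the leader's end and 2 stayed called, as did 5 of the 16 falls. In Ypel1, Ube3a, Hoxb6 and Hoxd8 the shares of the 2 genotypes did not overlap. Separate pools were a condition for naming the largest called changes.

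Translational efficiency, the change of coding footprints beyond that of RNA, was called for 0 of 1006 long-leader genes and 0.0% of 13877 genes (edgeR). By the unadjusted p under 0.05, 114 long-leader genes would count (11.3% against 9.84% over all genes), and DESeq2 called 1 (0.144% over all genes). Because each pool of cells gave both of its libraries, the fit was repeated with the pool as a block. That fit called 10 (0.994% against 0.814% over all genes), of which Trim71, Kbtbd11, Map3k10, Pou3f1, Scrt2, Eppk1 and Gm28230 rose and Bhlhb9, Ccdc88a and Tlk2 fell. Trim71 had a difference of 1.33 ± 0.30 without the block (adjusted p = 0.302) and 1.29 ± 0.21 with it (adjusted p = 0.0145). Its RNA stood at 24.96, 32.9 and 22.3 CPM in wild type and 41.0, 25.1 and 35.3 CPM in the mutant (0.33 ± 0.17, adjusted p = 0.352), with overlapping pools. For Map3k10 the coding footprints were 5.80, 23.8 and 6.60 CPM in the mutant against 4.62, 4.70 and 5.03 CPM in wild type, so mutant pool 2 stood far above the other 5 pools. Gm28230 shares coding sequence with Hoxd4, so its reads cannot be assigned. The median efficiency difference was 0.025 for long-leader genes and 0.020 for all. It had a Spearman's rho of 0.699 with coding GC content across 966 long-leader genes and 0.083 with leader length across 1006.

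The RNA counts of the wild type chose the genes and also enter this comparison, so it is a description. RNA differed for 3 of 1006 long-leader genes (0.298% against 0.388% over 13406, edgeR). Igfbp5 lay at 84.9, 76.1 and 85.9 CPM in wild type and 47.9, 60.8 and 57.9 CPM in the mutant (-0.57 ± 0.09, adjusted p = 0.0365). Ndn, the imprinted gene necdin of postmitotic neurons, lay at 350, 320 and 353 CPM and then 234, 281 and 251 CPM (-0.41 ± 0.08, adjusted p = 0.0448). Arhgap11a, a GTPase-activating protein of dividing cells, lay at 82.2, 87.1 and 89.8 CPM and then 113, 111 and 112 CPM (0.38 ± 0.06, adjusted p = 0.0365). In each the pools of the 2 genotypes did not overlap, which was a condition for naming. Igfbp5 was therefore lower in the RNA, the coding footprints and the leader footprints together. The count was 0 without any single wild-type pool or without mutant pool 3, where at most 0.0147% of all genes passed. It was 6 without mutant pool 1 and 183 of 1006 without mutant pool 2, against 0.557% and 11.3% of all genes.

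Most other signalling genes with long leaders were not called. Among the 2 Hedgehog genes, Gli1 had 15.9, 15.4 and 14.9 CPM of leader footprints in wild type and 20.1, 14.0 and 19.1 CPM in the mutant (0.21 ± 0.20, edgeR adjusted p = 0.541), and 4.50, 4.82 and 4.26 CPM of coding footprints against 6.15, 5.73 and 5.80 CPM (0.39 ± 0.13, adjusted p = 0.148). Its coding values did not overlap between genotypes, and its leader values did. Boc differed by 0.26 ± 0.13 in the leader (adjusted p = 0.229), and was called on the coding scale (0.46, adjusted p = 0.0316). None of the 11 BMP and TGF-beta genes was called in the leader, where Smad7 differed by 0.12 (adjusted p = 0.60) and the receptor Bmpr2 by -0.31 (adjusted p = 0.0918). The Bmpr2 leader stood at 507, 501 and 468 CPM in wild type and 364, 451 and 377 CPM in the mutant, without overlap. Without mutant pool 2 the leaders of Bmpr2, Tgfb2 and Skil were called lower, where 17.9% of all leaders passed. None of the 4 Wnt genes (Wnt5a, Fzd7, Tcf7l2, Lef1), the 4 FGF genes (Fgf12, Fgfr1, Fgfr2, Flrt3), the 3 Notch genes (Dll1, Maml3, Mib1) or the retinoic acid receptors Rara and Rarb was called in coding footprints, leader footprints, ratio or RNA. On the coding scale Mib1, a ubiquitin ligase that acts on Notch ligands, was called higher in the leader and in the ratio, and its leader values of 402, 420 and 413 CPM in wild type and 495, 554 and 435 CPM in the mutant did not overlap. Without mutant pool 2 the Fgf12 leader and the Tcf7l2 ratio were called lower. In the main comparisons no call was made either for the 6 mRNAs described as controlled through upstream frames (Atf4, Ppp1r15b, Azin1, Ibtk, Slc35a4, Klhdc8a), of which the Azin1 leader was called lower without mutant pool 2. Atf4 leader footprints stood at 559, 513 and 594 CPM against 472, 513 and 508 CPM (-0.16 ± 0.11, adjusted p = 0.356), and its coding footprints at 13.0, 12.4 and 12.1 CPM against 12.04, 15.5 and 14.4 CPM (0.16 ± 0.12, adjusted p = 0.448). Of 13 mRNAs described with internal or structured leaders, Hoxa9 and Map2 fell in the leader and none rose. Over all leaders 3.61% fell and 5.46% rose. Myc, Bcl2, Jun and Cdkn1b in that list had leader differences of 0.018, -0.15, -0.041 and -0.048.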

How the data were processed

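The deposited table gives, per the file headers, counts of reads per transcript for the 5′ UTR, coding sequence, 3′ UTR and whole transcript in 96 columns (12 libraries, 2 runs, 4 lanes). Per the submitters' processing notes cutadapt, STAR, bedtools and the build mm10 were used, with no versions stated. Coding counts leave out the first 15 and last 5 codons. Lanes and runs were summed, without 4 truncated columns of mutant pool 1. Of 122941 transcript IDs, 121271 matched GENCODE vM21 with version and 1522 without. Counts were fitted over all genes with edgeR 4.0.16 (quasi-likelihood, TMM, filterByExpr with a minimum count of 10, Benjamini-Hochberg, threshold 0.05) in R 4.3.3, tested on simulated data, with DESeq2 1.42.0 as alternative. The ratio and translational efficiency were interaction terms of genotype and part or assay. Footprints per RNA added 0.5 CPM. The pool as a block of the efficiency fit comes from the protocol, since both libraries share cells, and deviations of RNA and footprints within a pool correlated at 0.21 to 0.57. Genes named were those with the longest leaders, up to 8 largest called changes per direction with separate pools, the 8 highest and 4 lowest shares, a short list of signalling and growth genes, and up to 3 members per list of highest RNA, and further members of lists were named after their values were seen. Members and lists were chosen with earlier results of these data known. A few genes that met the rule are not reported here.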

Additional observations from a re-analysis of the deposited data

How the results depend on the processing

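The number of called long-leader genes depended on the tool, the filter and single libraries. The share called over all genes tested in the same fit is given in brackets, and for the length limits it is that of the main fit. Coding footprints gave 76 of 994 with DESeq2 (6.49%), 23 of 1006 with no filter (1.38%) and 0 with all lanes summed (0.067%). They gave 1 of 143 at 1000 nt or more (0.253%), and 0 to 233 when leaving out 1 pool each (0.0593% to 17.1%). Leader footprints gave 234 of 2803 at 300 nt or more and 13 of 138 at 1000 nt or more (both 9.08%). They gave 149 of 1006 with no filter (9.59%) and 37 of 976 with all lanes summed (4.22%). Without reads at the leader's end it was 53 of 929 (6.02%), and over the left-out pools 1 to 245 (0.433% to 17.9%). The ratio gave 97 of 2797 at 300 nt or more and 8 of 137 at 1000 nt or more (both 5.71%). It gave 17 of 868 with DESeq2 (4.45%), 54 of 1006 with no filter (7.07%) and 20 of 974 with GC offsets (4.95%). Scaled to coding footprints it gave 53 of 974 (9.23%), and without reads at the leader's end 8 of 927 (2.38%). Over the left-out pools it gave 1 to 77 (0.338% to 9.27%). Translational efficiency gave 1 of 1006 with DESeq2 (0.144%) and 0 to 0 over the left-out pools (0.0% to 0.00715%). RNA gave 11 of 2912 at 300 nt or more and 1 of 144 at 1000 nt or more (both 0.388%). It gave 44 of 843 with DESeq2 (3.94%), 50 of 1006 with no filter (2.65%) and 0 with GC offsets (0.0149%). Over the left-out pools RNA gave 0 to 183 (0.00736% to 11.3%). The wild-type share had a median of 20.3% at 300 nt or more, 31.5% at 1000 nt or more, 29.4% for leaders with an RNA density of at least 0.25, and 21.5% without reads at the leader's end. Footprints per RNA gave 0.856 and 0.806 at those lengths, 0.828 without coding overlap, 0.741 for leaders with RNA and 0.829 where every tied transcript had 500 nt. The cause of these moves was not tested. No gene named by the rule changed sign under any alternative. GC offsets, the RNA density minimum, the tied transcripts and the reads at the leader's end were added after seeing the data. With 11310843 to 59202834 coding footprints per library, small changes of leaders with few reads could not be seen.

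The replicate block gave 3 called genes for coding footprints (0.283% over all genes), 73 for leader footprints (6.37%) and 28 for the ratio (5.75%). It gave 26 for RNA (1.46%) and 10 for translational efficiency (0.814%). The labels do not say whether wild-type and mutant pools of the same number share a litter, so this block is an alternative only. Deviations of same-numbered pools of the 2 genotypes correlated at -0.103 to -0.042 for coding footprints, -0.058 to -0.024 for leader footprints and 0.056 to 0.115 for RNA.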
